A study of Mus musculus with 6 samples.

Results

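Ribosome biogenesis genes and Myc were followed as 43 genes in mouse CD8+ T cells, the killer lymphocytes of the immune system. They were chosen by name, as nucleolar and RNA polymerase I genes plus Myc, and all 43 stood among the 14481 genes of the count table. The cells were sorted from wild-type mice and activated with plate-bound anti-CD3 at 1 µg/ml, soluble anti-CD28 at 1 µg/ml and interleukin 2 at 0.1 µg/ml. After 1 day they received conditioned medium (CM) from astrospheres, which the labels call pSTAT3+ or pSTAT3-, and RNA was taken at day 3. STAT3 is a transcription factor that becomes active when phosphorylated. The groups are written STAT3+ CM and STAT3- CM below and hold 3 libraries each. Cells that received no CM were not analysed here. Activation, interleukin 2 and time in culture were therefore common to both groups. The labels do not state whether the replicates came from separate mice or cultures, and p-values therefore measure the spread between these samples alone.

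Ribosomes are assembled in the nucleolus. RNA polymerase I transcribes the long precursor of the ribosomal RNAs, small nucleolar ribonucleoproteins (snoRNPs) modify it, and large protein assemblies cleave and fold it into the small and the large subunit. MYC, a transcription factor induced by T cell receptor signalling, binds the hexamer CACGTG (the E-box) as a dimer with MAX and is known to raise transcription of many of these genes in growing cells. Naive T cells contain few ribosomes, and activation is known to increase their production before the cells divide.

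The E-box is shown here because many of the 43 genes are known MYC targets. CACGTG, which is its own reverse complement, was searched in RefSeq windows of 300 bases (mouse build GRCm38.p6), reaching from 250 bases before to 50 bases after an annotated transcript start. Windows were held for 36 of the 43 genes, and those of Myc, Tcof1, Rrp12, Fbl, Bop1, Rrs1 and Npm1 were not among them. The hexamer stood in a window of 7 of the 36 genes, or 19.4%, against 8.09% of all 27025 genes with a window and 11.6% of the 10262 among them that were tested. The matches are printed 5′ to 3′ on the gene's strand with up to 12 bases on each side within the window, and the capitals mark the hexamer.
Nop2: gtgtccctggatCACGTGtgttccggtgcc
Pes1: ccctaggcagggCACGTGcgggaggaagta
Utp4: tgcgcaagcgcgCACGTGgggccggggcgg
Wdr43: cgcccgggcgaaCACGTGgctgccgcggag
Pno1: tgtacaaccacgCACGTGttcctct
Utp20: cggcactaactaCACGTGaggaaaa
Mybbp1a: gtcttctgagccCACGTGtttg

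Coordinates span the printed stretch with its flanks, while positions relative to the start are those of the hexamer's first base. The Nop2 hexamer, within chr6:125131811-125131840 on the plus strand, began 60 bases before the start. The other hexamers began after the start. Those on the plus strand were Pes1 (chr11:3963965-3963994), Utp4 (chr8:106893643-106893672), Wdr43 (chr17:71616220-71616249) and Mybbp1a (chr11:72441355-72441376). Pno1 (chr11:17211540-17211564) and Utp20 (chr10:88826765-88826789) lay on the minus strand. A match is a run of letters and does not show that a factor was bound there in these cells.

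Levels are given as CPM, the read count of a gene relative to the library's total after TMM scaling. A positive log2 fold change means a higher level in STAT3+ CM. Fold changes, their standard errors (SE) and p-values came from edgeR's quasi-likelihood test, and p-values were adjusted across every gene tested by the Benjamini-Hochberg method. Library totals ran from 43346089 to 53630514 counts, and 14319 genes passed the low-count filter, all 43 among them. At an adjusted p of 0.05 the test called 0 of the 14319 genes (0%), while 521 (3.64%) had an unadjusted p under 0.05, 1.34% of the genes tested in the higher and 2.3% in the lower direction. DESeq2 called 48 genes, limma-voom with sample quality weights 16, and none of the 43 was called by either. The CD8 T cell label was met by its markers, with Cd8a at 801 to 1064 CPM in STAT3+ CM and 782 to 937 CPM in STAT3- CM. Of the B cell list 2 of 10 markers were tested, Ighm and Cd79b, and they summed to 332, 348 and 308 CPM in STAT3+ CM, against 308, 327 and 279 CPM in STAT3- CM. Nearly all of it was Ighm, while Cd79b, at 10.9, 10.9 and 11.8 CPM in STAT3+ CM and 7.39, 7.71 and 10.7 CPM in STAT3- CM, was higher without overlap (edgeR adjusted p = 0.989). The B cell markers Ms4a1 and Cd79a and the dendritic cell markers Flt3, Clec9a and Xcr1 were not among the genes of the table. The dendritic cell list, of which 7 of 12 markers were tested, summed to 99.1, 119.9 and 95.3 CPM in STAT3+ CM, against 147, 185 and 132 CPM in STAT3- CM. Its markers H2-Aa, H2-Eb1, Cd74 and Zbtb46 were lower in STAT3+ CM without overlap (smallest edgeR adjusted p = 0.533), and the part of B cell and dendritic cell markers in the values of the 43 genes was not tested. In bulk samples fewer cells of a type and less RNA per cell cannot be told apart.

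None of the 43 genes passed the test between the media. By edgeR 0 were called and 0 had an unadjusted p under 0.05, and the smallest adjusted p among them was 0.989. Log2 fold changes lay between -0.27 for Utp20 and 0.27 for Nop10, with a median of 0.074, against a median of 0.00076 over all genes tested. They were positive for 32 genes and negative for 11, where 50.2% of all genes tested were positive. The 95% interval held 0 for all 43, and for 39 it lay within a 1.5-fold difference either way. The intervals of Utp20, Rrp9, Nhp2 and Rrs1 reached further, to -0.76 at the low end for Utp20 and to 0.64 at the high end for Nhp2. In 2 genes, Myc and Nop10, the 3 STAT3+ CM values all lay above the 3 STAT3- CM values, where 7.95% of all genes tested had groups without overlap in either direction, 3.78% higher and 4.18% lower.

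**Figure D1:**
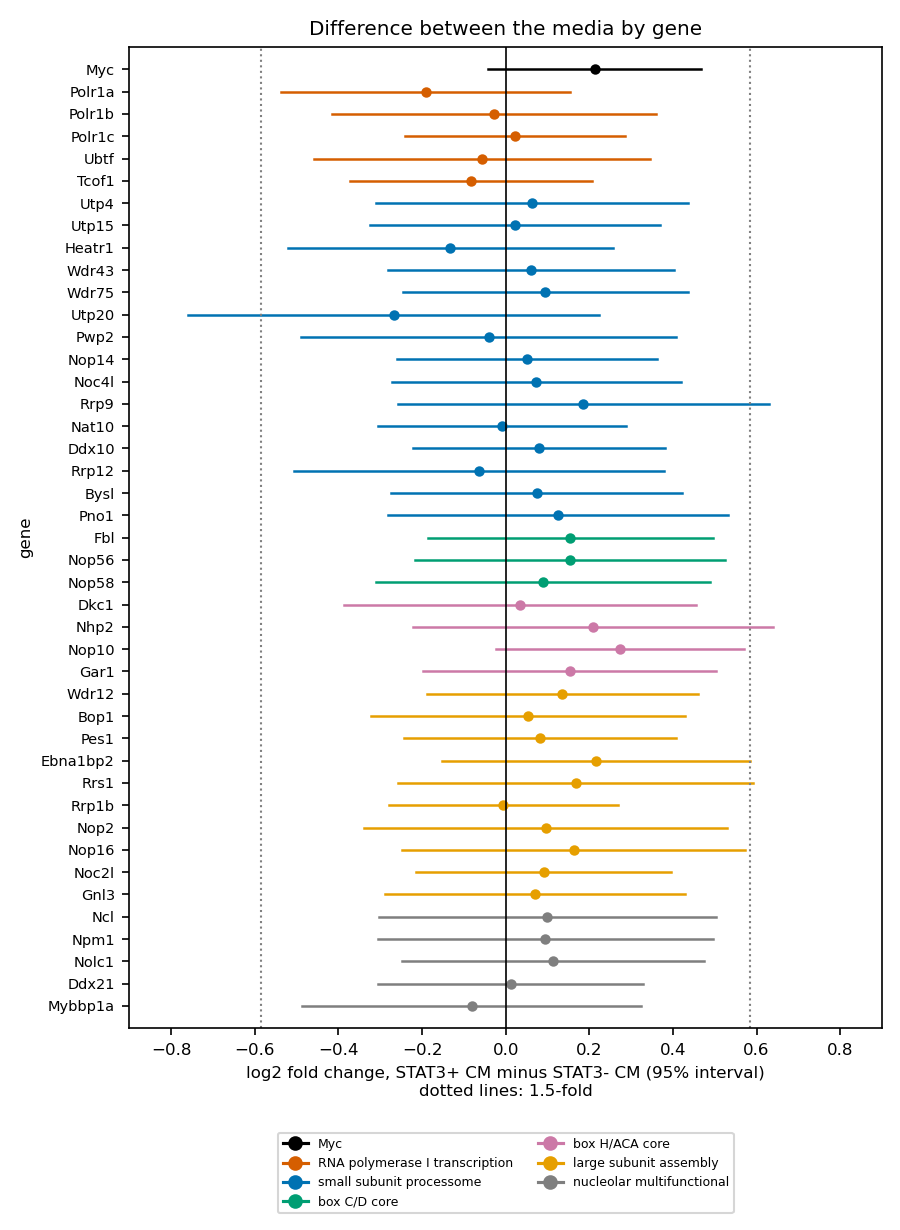
Log2 fold change (STAT3+ CM minus STAT3- CM) of each of the 43 genes, ordered by role, with its 95% interval from edgeR; dotted lines mark a 1.5-fold difference. Every interval crosses 0, and the point estimates run from -0.27 for Utp20 to 0.27 for Nop10.

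Myc, the transcription factor, was at 338, 344 and 344 CPM in the 3 STAT3+ CM libraries and at 283, 295 and 306.5 CPM in the 3 STAT3- CM libraries. The groups did not overlap, and the STAT3+ CM libraries lay closer to each other than the STAT3- CM libraries did. The means were 342 ± 3.3 CPM in STAT3+ CM and 295 ± 11.8 CPM in STAT3- CM (SD, n = 3 each). The log2 fold change was 0.21 (SE 0.115, 95% interval -0.042 to 0.468), and edgeR's adjusted p was 0.989. It was positive under all 19 alternative settings tried, from 0.168 to 0.25, with edgeR, limma or DESeq2 adjusted p of 0.608 or more. These settings reused the same libraries, and groups without overlap leave little room for the sign to turn.

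The 5 genes of RNA polymerase I transcription were 1 positive and 4 negative, with a median log2 fold change of -0.056, the lowest of the role groups. The 4 negative genes had coding sequences of 2292 to 5151 bases, and the positive 1, Polr1c, of 1038. Of 11 other RNA polymerase I genes tested, 7 were positive, with a median of 0.149. Polr1a encodes the largest subunit of the polymerase. It was at 92.5, 90.7 and 116 CPM in STAT3+ CM, against 123.4, 125.8 and 92.7 CPM in STAT3- CM. The groups overlapped because STAT3- CM replicate 3 lay among the STAT3+ CM values. The fold change of Polr1a was -0.19 on the log2 scale (SE 0.156, edgeR adjusted p = 0.989). Tcof1 encodes treacle, a nucleolar scaffold needed for ribosomal RNA transcription, and was at 229, 191 and 217 CPM in STAT3+ CM, against 237.5, 237.5 and 200.2 CPM in STAT3- CM. Its log2 fold change of -0.082 (SE 0.13, edgeR adjusted p = 0.989) lay well within its error. Polr1b, the second-largest subunit, had a log2 fold change of -0.029, and Ubtf, which opens ribosomal DNA for transcription, of -0.056. Polr1c, a subunit shared with RNA polymerase III, varied least of the 5, from 130.3 to 155 CPM in STAT3+ CM and from 137 to 139 CPM in STAT3- CM, with a log2 fold change of 0.023.

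The small subunit processome is the assembly that folds and cleaves the RNA of the small subunit, and 10 of its 15 genes here had a positive log2 fold change, with a median of 0.06. Utp20 encodes a very large scaffold protein of this assembly. It was at 89.8, 107 and 133 CPM in STAT3+ CM, against 156, 153 and 88.3 CPM in STAT3- CM. Its groups overlapped through STAT3- CM replicate 3, the lowest of all 6 values, and the log2 fold change was -0.27 (SE 0.221, edgeR adjusted p = 0.989). Rrp9, a protein of the snoRNP that pairs with the precursor RNA for the first cleavages, had a fold change of the other sign and was at 121, 179.8 and 133 CPM in STAT3+ CM against 144, 143.5 and 93.5 CPM in STAT3- CM. STAT3+ CM replicate 2 stood above the other 5 libraries, and the log2 fold change was 0.19 (SE 0.199, edgeR adjusted p = 0.989). Wdr43 was the most abundant of the 15 in CPM, at 278, 307 and 291 CPM in STAT3+ CM, against 304, 317 and 219 CPM in STAT3- CM, with a log2 fold change of 0.06 (SE 0.154). The remaining 12 were Utp4, Utp15, Wdr75, Heatr1 and Pwp2, which are scaffold subunits, Nop14 and Noc4l, which act in small subunit maturation, the helicase Ddx10, the RNA acetyltransferase Nat10, and the assembly factors Rrp12, Bysl and Pno1. Their log2 fold changes ran from -0.13 for Heatr1 to 0.125 for Pno1.

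The box C/D snoRNPs add methyl groups to ribosomal RNA, and the log2 fold change was above 0 for all 3 core genes measured, at a median of 0.153. Their coding lengths ran from 981 bases for Fbl to 1740 for Nop56. Without STAT3- CM replicate 3 the log2 fold changes were 0.032 for Fbl, 0.0085 for Nop56 and -0.0901 for Nop58. Fbl encodes fibrillarin, the methyltransferase, and was at 332, 377 and 297 CPM in STAT3+ CM, against 320.3, 336 and 247.5 CPM in STAT3- CM. The groups overlapped, with a log2 fold change of 0.155 (SE 0.153, edgeR adjusted p = 0.989), and the lowest library of each was replicate 3. Nop56 and Nop58 form the paired scaffold of the particle. Nop56 was at 390.3, 480.3 and 482.5 CPM in STAT3+ CM, against 421, 476 and 320.1 CPM in STAT3- CM, and its log2 fold change was 0.153 (SE 0.167). Nop58 was at 442, 535 and 462 CPM in STAT3+ CM, against 491, 529.8 and 331 CPM in STAT3- CM, and its log2 fold change was 0.09 (SE 0.18). The ratio of Nop56 to Nop58 stayed between 0.857 and 1.04 over the 6 libraries, while the highest library of each gene was more than 1.5-fold above its lowest.

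The box H/ACA snoRNPs convert uridine to pseudouridine, and the log2 fold change was above 0 for all 4 core genes. Their median, 0.181, was the highest of the role groups with several genes. Coding lengths ran from 192 bases for Nop10 to 1527 for Dkc1, and all 22 members of at most 2031 bases were positive. Without STAT3- CM replicate 3 the log2 fold changes were 0.234 for Nop10, 0.044 for Nhp2, 0.0085 for Gar1 and -0.161 for Dkc1. Nop10 encodes the smallest core protein. It was at 180.4, 229 and 188 CPM in STAT3+ CM, against 161, 178 and 156 CPM in STAT3- CM. The groups did not overlap, with a lowest value of 180.4 CPM in STAT3+ CM against a highest of 178 CPM in STAT3- CM. They overlapped when counts were scaled by library totals only. The log2 fold change was 0.27 (SE 0.133, edgeR adjusted p = 0.989). It was positive under all 19 alternative settings, from 0.162 to 0.341, but these reused the same libraries and left its sign little room to turn. Nhp2, an RNA-binding core protein, was at 278, 392.2 and 272 CPM in STAT3+ CM, against 297, 312 and 206 CPM in STAT3- CM, with overlapping groups and a log2 fold change of 0.21 (SE 0.194). Dkc1 encodes dyskerin, the pseudouridine synthase, and was at 274, 347 and 307 CPM in STAT3+ CM, against 337, 355 and 215 CPM in STAT3- CM. Its log2 fold change was 0.034 (SE 0.189), the smallest of the 4, and Gar1, the remaining core protein, had 0.153.

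**Figure D2:**
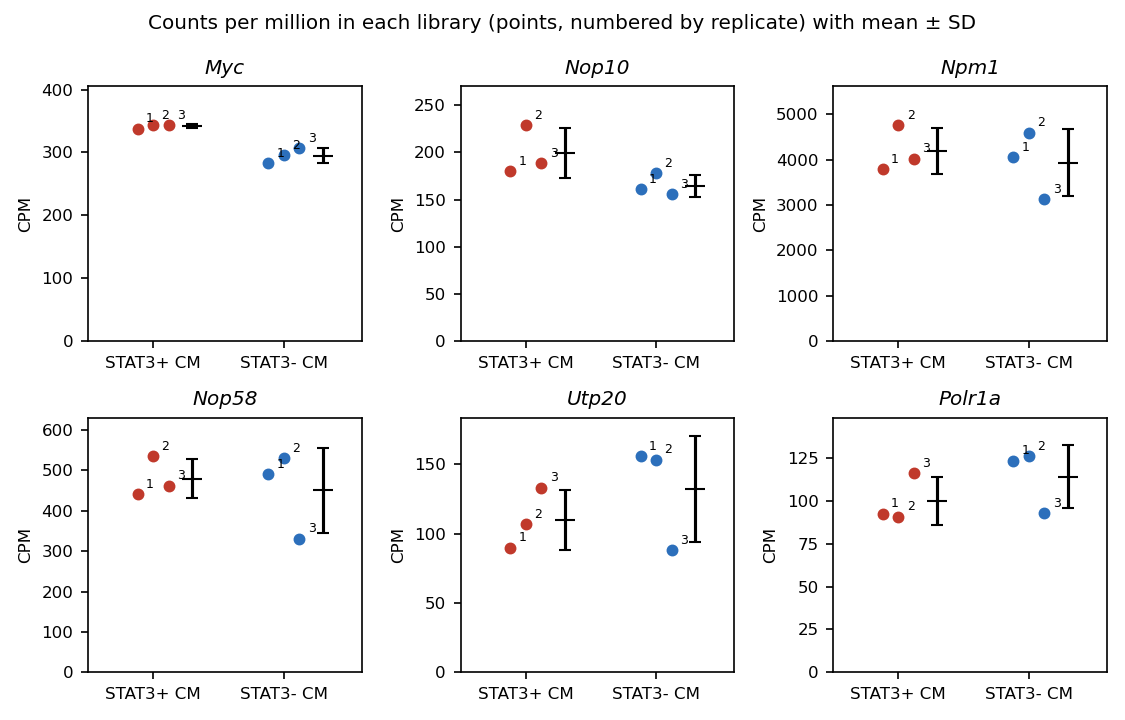
CPM of Myc, Nop10, Npm1, Nop58, Utp20 and Polr1a, 1 point per library numbered by replicate, with the mean and SD of each group (n = 3) and STAT3+ CM left of STAT3- CM. In Myc and Nop10 the groups do not overlap, while in Npm1, Nop58 and Utp20 the lowest point is STAT3- CM replicate 3.

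Large subunit assembly had 10 genes, of which 9 had a positive log2 fold change, with a median of 0.093. Ebna1bp2, an assembly factor of early large subunit particles, was at 236, 291 and 216 CPM in STAT3+ CM, against 231, 238 and 170.2 CPM in STAT3- CM. Its log2 fold change was 0.22 (SE 0.166, edgeR adjusted p = 0.989), and the groups overlapped. Wdr12 forms with Pes1 and Bop1 the PeBoW complex, which is required for large subunit RNA processing. Wdr12 was at 120.2, 144 and 133 CPM in STAT3+ CM, against 126, 137 and 99 CPM in STAT3- CM, with a log2 fold change of 0.136 (SE 0.146). Its partners Bop1 and Pes1 had 0.053 and 0.082, and the ratio of Pes1 to Bop1 ran from 1.16 to 1.41 over the libraries. Noc2l, the most abundant of the 10 in CPM, was at 377, 409 and 394 CPM in STAT3+ CM, against 378, 416 and 314 CPM in STAT3- CM, with a log2 fold change of 0.091 (SE 0.137). The others were Rrs1 and Nop16 at 0.167 and 0.162, the RNA methyltransferase Nop2 at 0.095, the nucleolar GTPase Gnl3 at 0.07 and Rrp1b at -0.0062.

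Among the 5 nucleolar proteins with several roles, 4 had a positive log2 fold change and the median was 0.095. Npm1 encodes nucleophosmin, the main protein of the outer nucleolus, and was at 3795, 4768 and 4025 CPM in STAT3+ CM, against 4061, 4595 and 3133 CPM in STAT3- CM. Its log2 fold change was 0.095 (SE 0.18), and the groups overlapped. Ncl, nucleolin, was at 3260, 3385 and 3105 CPM in STAT3+ CM, against 3134, 3657 and 2306 CPM in STAT3- CM, so the STAT3- CM libraries held both the highest and the lowest of its values. Its log2 fold change was 0.0999 (SE 0.181). Nolc1, a snoRNP chaperone, was at 353, 361.5 and 368 CPM in STAT3+ CM, against 347, 398 and 255 CPM in STAT3- CM, with a log2 fold change of 0.113 (SE 0.163). The helicase Ddx21 had 0.012 and Mybbp1a, a nucleolar MYB-binding protein, -0.081.

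Levels can be compared between genes only per length. Per kilobase of coding sequence, Npm1 was highest with a mean of 4638 CPM over the 6 libraries, then Ncl with 1481, Nop10 with 948 and Nhp2 with 638. Counts were given per gene, so reads outside the coding sequence may be included. Nop10 had 192 coding bases against a transcript length of 1109, and 164 CPM per kilobase of transcript. Myc stood at rank 12 of 43 with 234 CPM per coding kilobase, and the lowest were Polr1a with 20.75 and Utp20 with 14.5. The order depended on the length used. Transcript length was the median over a gene's protein-coding isoforms, and coding length the longest coding sequence among them. For Nop56 (1372 against 1740 bases) and Polr1b (3383 against 3405) the transcript length was therefore the shorter. Per kilobase of transcript Npm1 and Ncl were still highest. Nop56 came next with 312 CPM, a rank that rests on that shorter length. Per coding kilobase it was at rank 10 with 246 CPM. Per kilobase of transcript Myc stood at rank 6 and Nop10 at rank 7, and Polr1a was lowest with 11.6 CPM. Per kilobase of transcript, all 43 genes lay above the median of the genes tested, with a median of 82.4 CPM per kilobase against 7.53. In 6 of the 43 genes (Wdr43, Nop56, Nop58, Dkc1, Gnl3 and Ncl) the annotation placed 19 snoRNA genes within the gene. That is 14% of the genes, against 1.8% of 11844 annotated protein-coding genes tested. The snoRNAs themselves are not polyadenylated and were not measured here.

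Libraries of the same medium differed over the 43 genes. As a measure of each library, the log2 CPM of a gene minus its mean over the 6 libraries was taken, and its median over the 43 genes was -0.078, 0.136 and 0.073 in STAT3+ CM, against 0.067, 0.165 and -0.377 in STAT3- CM. The same median over all genes tested lay between -0.013 and 0.017 in every library. The SD of this measure within groups was 0.219, larger than the median fold change of 0.074 between them, and 0.0985 without STAT3- CM replicate 3. STAT3- CM replicate 3 stood below the other 5 libraries, with 0 of the 43 genes above their own mean, and STAT3+ CM replicate 1 was next with 7. In STAT3- CM replicate 3 were the lowest values of 39 of the 43 genes, where 24.8% of all genes tested had theirs. The 4 exceptions were Myc, Polr1a, Polr1c and Tcof1. The 43 genes took 1.49%, 1.72% and 1.7% of the counts in STAT3+ CM, against 1.66%, 1.8% and 1.32% in STAT3- CM. The first principal component of the 43 genes held 81.4% of their variance, and along it STAT3- CM replicate 3 lay farthest from the others, followed on the same side by STAT3+ CM replicate 1.

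**Figure D3:**
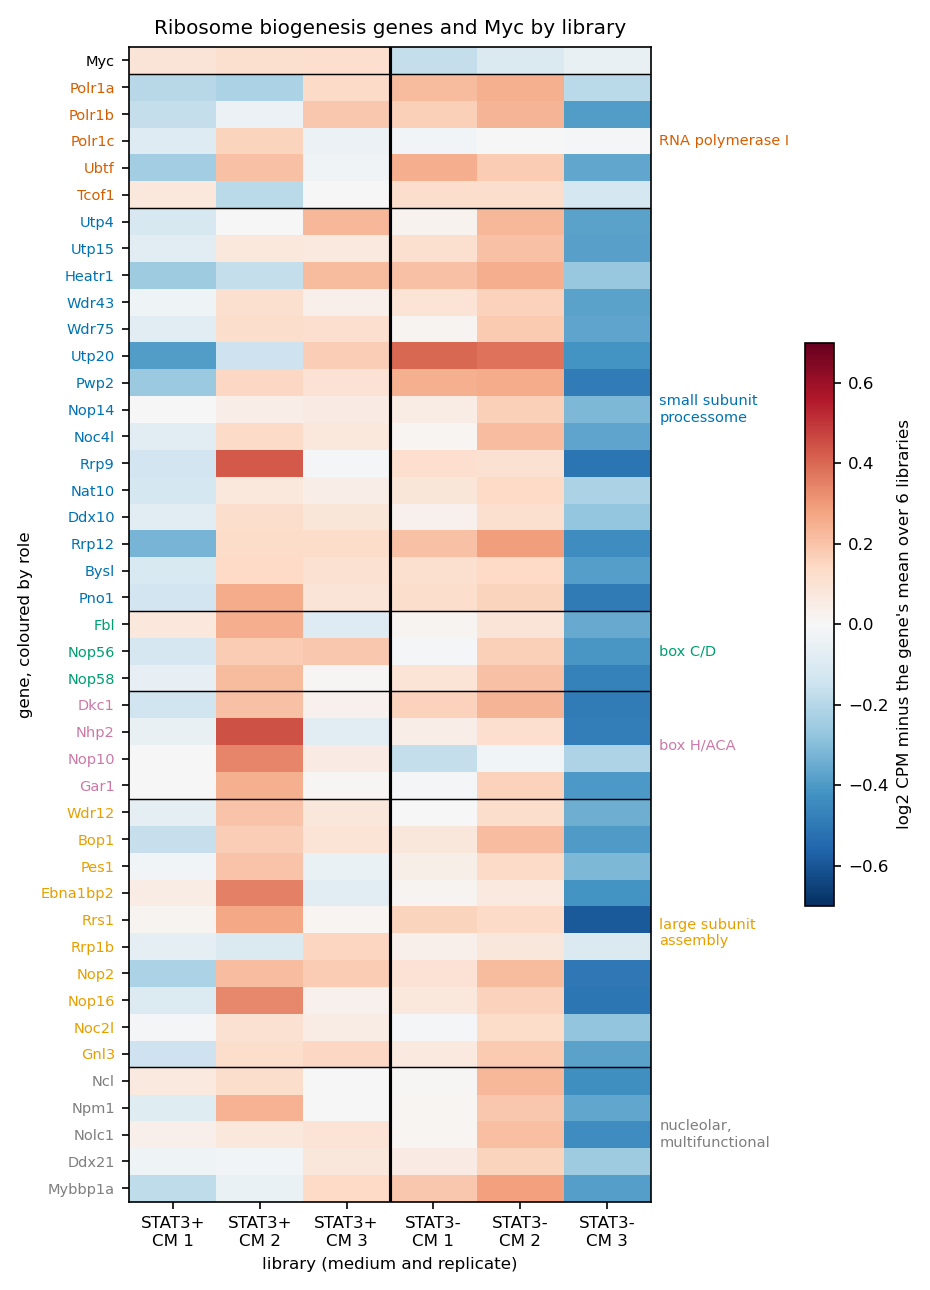
Log2 CPM of each of the 43 genes minus its mean over the 6 libraries, with genes grouped by role in rows and libraries in columns, STAT3+ CM left. The STAT3- CM replicate 3 column is low for nearly all genes, with a median of -0.377, while Polr1c and Myc are near their means there.

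Which way the 43 genes leaned depended on that library. Against STAT3- CM replicate 3, the 3 STAT3+ CM libraries were higher in 41, 41 and 42 of the 43 genes. Against STAT3- CM replicate 2 they were higher in 2, 18 and 4 genes, and against replicate 1 in 7, 28 and 19. Without STAT3- CM replicate 3, 10 of the 43 log2 fold changes were positive instead of 32, where 51.1% of all genes tested were, and the median was -0.071. None was then called by edgeR (smallest adjusted p = 0.538), and 2 had an unadjusted p under 0.05, Utp20 at -0.49 and Polr1a at -0.32, against 6.51% of all genes tested. Groups without overlap were then found in 10 genes: Myc and Nop10 higher, and Polr1a, Tcof1, Utp15, Utp20, Pwp2, Nat10, Rrp12 and Mybbp1a lower. These 10 are 23.3% of the 43 genes, near the 22.9% of all genes tested whose groups did not overlap with 3 libraries against 2. By direction 2 of the 43 were higher and 8 lower, where 11.3% of all genes tested were higher and 11.5% lower. Without both that library and STAT3+ CM replicate 1, 19 log2 fold changes were positive. Myc was 0.24 without STAT3- CM replicate 3 and Nop10 0.23.

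In sum, a list of CD4 T cell markers was highest in the libraries that were lowest for the 43 genes, mostly through Ctla4. The summed CPM of the 5 markers Cd4, Cd40lg, Foxp3, Ctla4 and Zbtb7b was 282.5, 122 and 156 in STAT3+ CM, against 57.8, 114 and 330 in STAT3- CM, so it was highest in STAT3- CM replicate 3 and STAT3+ CM replicate 1. Most of it was Ctla4, an inhibitory receptor that activated CD8 T cells also express, at 266, 109 and 137.5 CPM in STAT3+ CM, against 47.4, 104 and 306 CPM in STAT3- CM. Cd4 itself was between 0.66 and 1.62 CPM in all libraries. Of the 5 markers, 4, 1 and 3 lay above their own mean in STAT3+ CM, against 1, 1 and 3 in STAT3- CM. The part of these markers in the low values of the 43 genes was not tested. Cell division genes did not have this library order: on the same log2 scale the median of 23 of them was 0.235, -0.049 and -0.17 in STAT3+ CM, against -0.024, 0.175 and -0.15 in STAT3- CM. The share of mitochondrially encoded genes was between 1.6% and 1.98% in all libraries.

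Myc did not follow the median of the other 42 genes across libraries. On the scale of log2 CPM minus the gene's mean, Myc was 0.091, 0.114 and 0.116 in STAT3+ CM, against -0.166, -0.104 and -0.051 in STAT3- CM. In STAT3- CM replicate 3, where the median of the other 42 genes was -0.378, Myc had the highest of its STAT3- CM values. Polr1c, at -0.010, was also near its mean in STAT3- CM replicate 3. In that library the median was -0.387 over the 7 genes with CACGTG in their window and -0.372 over the 29 whose windows lacked it. Their median log2 fold changes between the media were 0.063, with 5 of 7 positive, and 0.074, with 22 of 29 positive.

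The order of the fold changes among the 43 genes followed the length of their coding sequence. Across the genes, which are not independent replicates and share the same 6 libraries, Pearson's r between the log2 fold change and the log10 coding length was -0.842 and Spearman's rho -0.796. The shortest, Nop10 with 192 coding bases, had the highest fold change, and the longest, Utp20 with 8367, the lowest. All 22 genes with a coding length of at most 2031 bases had a positive log2 fold change, with a median of 0.13. Of the 21 longer genes 10 were positive, with a median of -0.0062. The background ran the same way: of the protein-coding genes at 1 CPM or more, 62.3% of the 7687 in the shorter range were positive and 20.8% of the 3006 in the longer range, with r = -0.359 over all 10693. Between the 43 genes and GC content of the transcript r was 0.005.

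**Figure D4:**
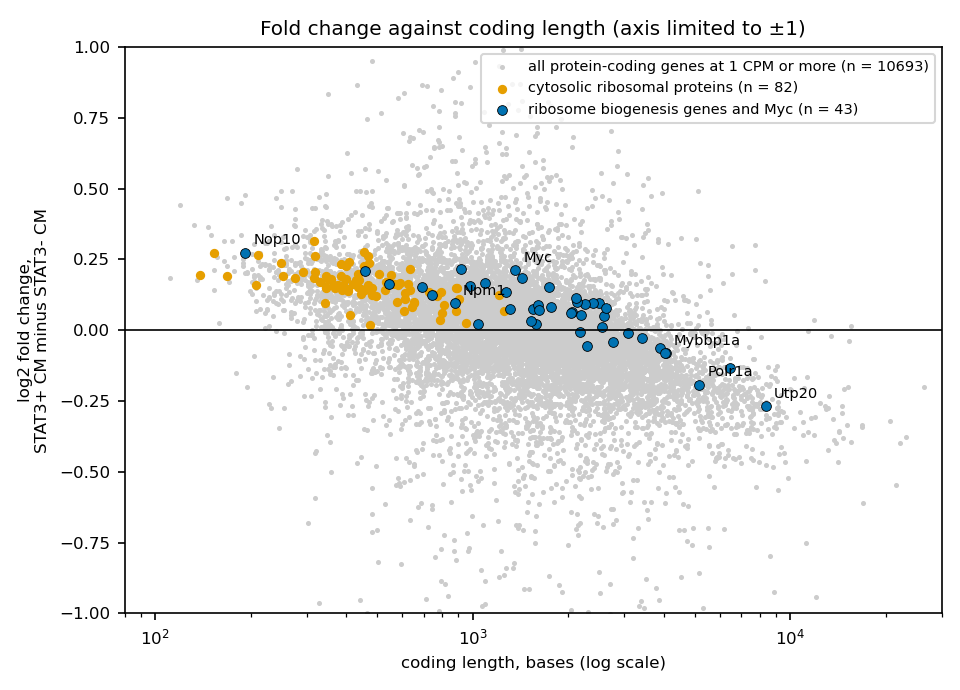
Log2 fold change (STAT3+ CM minus STAT3- CM) of the 43 genes (blue), the 82 cytosolic ribosomal protein genes (orange) and all 10693 protein-coding genes at 1 CPM or more (grey, those beyond 1 either way not shown) against coding length in bases on a log10 axis. The blue points descend from Nop10 at 192 bases to Utp20 at 8367 bases, with Pearson's r of -0.842.

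The relation with length differed by library. Between log10 coding length and the log2 CPM of the 43 genes minus their means, r was -0.489, -0.805 and 0.511 in STAT3+ CM, against 0.632, 0.616 and 0.14 in STAT3- CM. STAT3+ CM replicate 2 had the strongest relation, with its shorter genes high and its longer genes low, and over the 10693 protein-coding genes r there was -0.568. Libraries of the same medium thus differed in sign, as replicate 3 of STAT3+ CM did from its other 2 libraries. Without STAT3+ CM replicate 2 the r of the fold changes was -0.579, and without STAT3- CM replicate 3 it was -0.792, with 10 of 22 shorter and 0 of 21 longer genes positive. What sets this relation was not tested.

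Other genes of the pathway were described by lists. Of 106 other ribosome biogenesis genes tested, 85 had a positive log2 fold change, with a median of 0.076, and 0 were called by edgeR, as in all lists below. Their library medians, -0.041, 0.159 and 0.052 in STAT3+ CM, against 0.052, 0.131 and -0.314 in STAT3- CM, were also lowest in STAT3- CM replicate 3 and next lowest in STAT3+ CM replicate 1. They comprised 11 other RNA polymerase I genes (7 positive, median 0.149) and 38 other small subunit processome genes (31 positive, median 0.052). The rest were 47 other large subunit assembly genes (38 positive, median 0.064) and 10 snoRNP assembly genes (9 positive, median 0.158). The groups did not overlap in 4 of the 106, all higher in STAT3+ CM: the polymerase subunits Polr1d and Polr1h, and the processome genes Utp11 and Fcf1. That count is near the background of 3.78% higher without overlap among all genes tested. The largest fold changes among the large subunit genes were 0.31 for Rpf2, which helps to place the smallest ribosomal RNA, and -0.34 for Mdn1, a giant remodelling ATPase. RNA polymerase III genes, which serve the smallest ribosomal RNA, were 9 positive of 22 with a median of -0.023.

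The cytosolic ribosomal protein genes had another library order. All 82 tested had a positive log2 fold change, with a median of 0.16, but 0 were called by edgeR, 0 had an unadjusted p under 0.05 and 0 had groups without overlap. Their library medians were 0.179, 0.278 and -0.231 in STAT3+ CM, against -0.025, -0.12 and -0.067 in STAT3- CM. STAT3+ CM replicate 3 was the lowest of the 6 for these genes, whereas the 43 biogenesis genes were lowest in STAT3- CM replicate 3. Ribosomal proteins are encoded by short transcripts, and r between their fold changes and log10 coding length was -0.582.

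**Figure D5:**
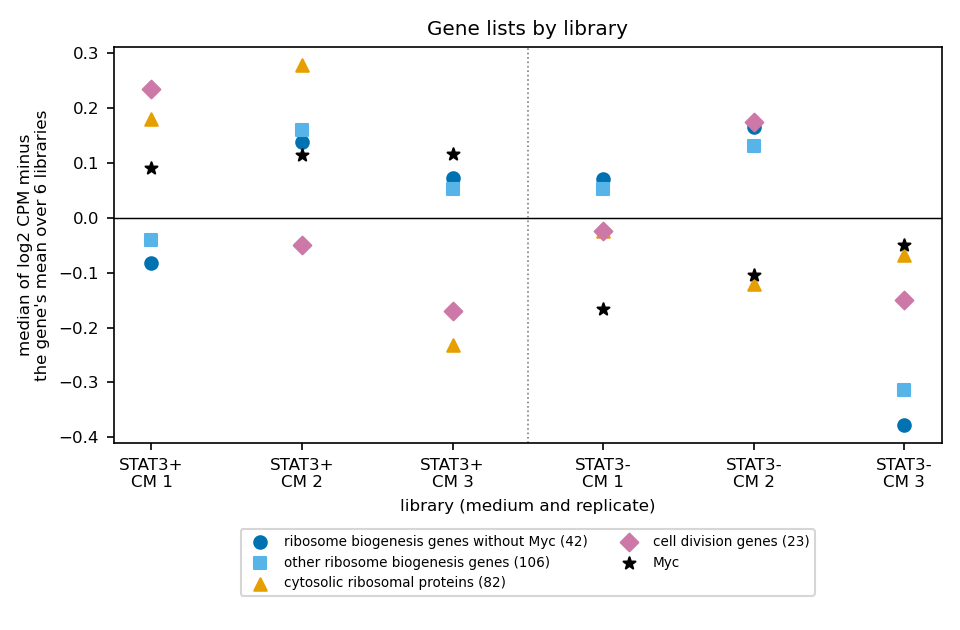
Median over each gene list of log2 CPM minus the gene's mean over the 6 libraries, by library, with STAT3+ CM left of STAT3- CM. The biogenesis lists are lowest in STAT3- CM replicate 3, the ribosomal proteins in STAT3+ CM replicate 3, and Myc is above 0 in the 3 STAT3+ CM libraries alone.

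Genes around MYC were also read. Of 16 tested genes of the MYC network, 8 had a positive log2 fold change, with a median of -0.016. Its smallest unadjusted p belonged to the low-abundance paralog Mycn, at 0.573, 0.384 and 0.361 CPM in STAT3+ CM, against 2.05, 1.02 and 0.563 CPM in STAT3- CM, with a log2 fold change of -1.46 (SE 0.497, edgeR adjusted p = 0.989). Its groups overlapped by 0.573 against 0.563 CPM. The coactivator Trrap and the MAX partner Mga had -0.31 and -0.29. Of 33 other MYC target genes tested, 25 were positive with a median of 0.072, where 50.2% of all genes tested were positive. Among the 33 was Hspe1, a mitochondrial chaperonin, at 0.27. Library medians of this list were -0.038, 0.172 and -0.031 in STAT3+ CM, against 0.042, 0.136 and -0.326 in STAT3- CM. They were lowest in STAT3- CM replicate 3, as for the 43 genes. The amino acid transporter subunits Slc7a5 and Slc3a2 had -0.29 and -0.198. Genes induced by p53, which disturbed ribosome assembly is known to activate, were 9 positive of 17 with a median of 0.0079. The lowest of them were Sesn2 at -0.52 (SE 0.179) and Plk2 at -0.36 (SE 0.154), both with an unadjusted p under 0.05 and an edgeR adjusted p of 0.989.

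Exons of another gene on the opposite strand overlapped 12 of the 43 genes, among them Nop56 with Idh3b, Nhp2 with Rmnd5b, Dkc1 with Mpp1 and Noc2l with Samd11. How the counting treated strand is not given in the sources used here. Reads of such partners may therefore be included in these counts. Myc, Nop10, Utp20, Ncl and Npm1 had no such overlap in the annotation used. Npm1 has processed copies elsewhere in the genome, and how the counting treated reads shared with them is not given.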

How the data were processed

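Per the labels' protocols, RNA was isolated with PicoPure and 500 ng of it, selected for polyadenylated RNA, entered a directional NEBNext Ultra II preparation. The values are raw read counts per gene deposited by the authors, 1 column per library. TopHat2 2.0.10, Cufflinks 2.2.1, Bowtie 1.0.0 and the GRCm39 build appear in the submitters' processing notes. Which program counted the reads, with which annotation and strand setting, is not given in the sources used here. No gene of the table had fewer than 40 counts in total.

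Counts were filtered with filterByExpr (162 genes left out), scaled by TMM factors of 0.9605 to 1.06, and compared over all 6 libraries in edgeR 4.0.16 (R 4.3.3) with its quasi-likelihood F test, run with robust estimation and no covariate. P-values were two-sided and adjusted over 14319 genes. Over all genes the biological coefficient of variation had a median of 16.95% and the SE one of 0.18; over the 43 genes the SE had a median of 0.163. Log2 CPM used a prior count of 2. Lengths, snoRNA genes and opposite-strand exons came from GENCODE vM21 by symbol. Transcript length was the median over the protein-coding isoforms of a gene, and coding length the longest coding sequence among them. Both depend on the isoforms annotated. The relation with the fold changes is given for coding length, and with transcript length r was weaker, at -0.725 against -0.842. Sequences came from RefSeq. The workflow was tested on simulated data.

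The 43 genes and the lists were chosen with earlier results of these data known. Values per library are given for Myc, for genes whose groups did not overlap, and in each role for the 2 genes with the smallest p and the most abundant 1; from each pathway list the 3 genes with the smallest p were eligible. Alternatives were other scalings, filters and tools (DESeq2 1.42.0, limma 3.58.1), the replicate number as a block, and libraries left out.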

Additional observations from a re-analysis of the deposited data

How the results depend on the processing

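Over 19 alternatives 0 of the 43 genes were called, and their median log2 fold change ran from -0.071 to 0.182, less than the SD within groups of 0.219 from the 0.074 reported. That SD was 0.0985 without STAT3- CM replicate 3, and both the lowest median, -0.071, and the highest, 0.182, lie farther than that from 0.074. Genes called over the whole table, 0 in edgeR, were 48 by DESeq2, 16 by limma-voom with quality weights, 10 with both STAT3- CM replicate 3 and STAT3+ CM replicate 1 left out, and 0 to 18 with each library left out. The 18 came without STAT3- CM replicate 3 and 1 without STAT3- CM replicate 1. Positive fold changes, 32 of 43, were 19 with quality weights, 19 without both libraries and 10 to 39 with each left out. Groups without overlap, 2 genes, were 1 (Myc) under library totals only. They were 11 (25.6% of the 43, against 35.3% of all genes) without both libraries. With each library left out they were 2 to 10, where the groups of 11.3% to 28% of all genes did not overlap. Library totals alone shifted the median of all genes by -0.042 and gave Dkc1 -0.00067. With quality weights the sign turned for Wdr43 (-0.035), Nop58 (-0.018), Dkc1 (-0.084) and Ncl (-0.0017). Without both libraries it turned for Wdr43 (-0.054), Nop58 (-0.034), Dkc1 (-0.079), Nolc1 (-0.032) and Ncl (-0.065). With each library left out, log2 fold changes ran from -0.0011 to 0.297 for Rrp9, -0.161 to 0.165 for Dkc1, -0.045 to 0.22 for Npm1, -0.089 to 0.157 for Wdr43, -0.0901 to 0.221 for Nop58, -0.013 to 0.182 for Noc2l, -0.048 to 0.259 for Nolc1 and -0.063 to 0.255 for Ncl. The cause was not tested. The other 322 of 342 values for the 18 genes given with values per library kept their sign. Among all 43 genes the sign turned most often without STAT3- CM replicate 3, in 22 genes. No gene of the 43 passed the threshold under any setting, so none could change its side. Equal replicate numbers correlated by -0.261, 0.281 and 0.182, and unequal numbers by -0.495 to 0.423. From so few libraries these values cannot tell whether the numbers pair the libraries. With the replicate number as a block 0 genes were called, and the median over the 43 genes was 0.089. With 3 libraries per group, an exact permutation test of 1 gene could not go below p = 0.1.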
